A study of Mus musculus with 4 samples.

Results

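Beside Gata3, a small set of transcription factors is tied to the type 2 helper (Th2) fate of CD4+ T cells, and the accessible chromatin around their genes was read here from ATAC-seq peak lists. The names considered were Maf, Nfil3, Gfi1, Pparg, Bhlhe40, Bhlhe41, Spi1b and Dec1, of which 6 have a mouse gene record of their own. Dec1 is listed in RefSeq only as another name of Bhlhe40 and was not counted a second time, and Spi1b has no record under that symbol in GENCODE or RefSeq, so nothing is reported for it. A region belonged to a gene when it lay within the mm10 gene record or the 50 kb on either side of it, and peaks of the 4 libraries that shared at least 1 base were merged into a region. This assignment is by distance alone, and which gene a distal region acts on was not tested. This gave 90 regions of the 93679 in the whole series. Of these, 10 lay within 1 kb of a start site of the gene itself, 5 within 1 kb of a start site of a neighbouring gene, and 75 were distal.

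Open chromatin was measured in mouse naive CD4+ T cells (CD62Lhigh CD44low CD25-) sorted from spleens of 7-week-old male wild-type C57BL/6 mice and cultured for 48 h. All cells received plate-bound anti-CD3 (5 µg/ml), soluble anti-CD28 (1 µg/ml), human TGF-β1 (5 ng/ml) and mouse IL-2 (10 ng/ml), the conditions that polarize induced regulatory T (iTreg) cells. The 2 iTreg+IL-4 libraries also received mouse IL-4 (15 ng/ml) and the 2 iTreg+PBS libraries received PBS, with 50000 cells per library. The study describes its biological samples as pooled, and neither the labels nor its methods give the number of animals behind a library, so the spread printed below is that between these samples. The model has 1 time point and a mixed culture, in which a change in the share of cells that carry an open site and a change within each cell cannot be told apart.

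Naive CD4+ T cells that receive IL-4 phosphorylate STAT6, which raises Gata3, and further factors then shape the Th2 programme. Maf is a basic leucine zipper activator of Il4, Nfil3 is a basic leucine zipper repressor that also acts on cytokine genes, and Gfi1 is a zinc finger repressor known for the growth of Th2 cells. Pparg is a ligand-dependent nuclear receptor, and Bhlhe40 and Bhlhe41 are related basic helix-loop-helix repressors that bind E-boxes. TGF-β1 and IL-2, present in both conditions here, act on Smad factors and STAT5.

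The lists held 77064 and 56645 peaks in iTreg+PBS replicates 1 and 2, and 78670 and 67743 in iTreg+IL-4 replicates 1 and 2. iTreg+PBS replicate 2 stood apart as the shortest list with the lowest median peak height, 32 against 44 to 53 in the other libraries. Read depth is unknown. The promoters of all 8 CD4 T cell marker genes had a peak in each library, against 0 and 1 of 4 B cell markers with PBS and 2 and 2 with IL-4, 1 or 2 of 5 myeloid markers and 1 or 2 of 4 markers of other lymphocytes, with Cd79a, Lyz2, Csf1r, Adgre1, Ncr1 and Klrb1c at none. The part of B cell markers in the results below was not tested. Within a list each region was given a rank, the percent of that list's peaks with a higher −log10 q-value than its best peak, so a small rank is a strong peak. A rank also moves with list length. Among distal regions called in all 4 libraries the median rank was 37.6 and 51.1 in the iTreg+PBS libraries and 36.9 and 42.6 in the iTreg+IL-4 libraries, and the rank of iTreg+PBS replicate 2 was the larger of the iTreg+PBS pair in 84.3% of them. Heights are those of each library, with no scaling between them.

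All 6 genes had a peak at their own promoter in both conditions, and no region near them had peaks in both libraries of 1 condition and in neither of the other. A peak at the own promoter was present in all 4 libraries for 6 of 6 genes, against 58.3% of 21827 coding genes. No region had a peak in each of the iTreg+IL-4 libraries and none with PBS, where the background share was 2.96% of distal and 1.09% of promoter regions. Likewise 0 of 90 regions had a peak in each of the iTreg+PBS libraries and none with IL-4, where the background was 0.79% of distal and 0.32% of promoter regions. At those shares the 75 distal regions correspond to 2.22 and 0.59 regions, so a count of 0 is within reach of the background and is not a result about these genes. It became 1 or 2 regions called only with IL-4 under lists of equal length, a reciprocal overlap of 50% or flanks of 100 kb. Of all coding genes, 18.2% had at least 1 region called only with IL-4 within the same distance and 5.85% had at least 1 called only without it, and none of the 6 genes had either.

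**Figure D1:**
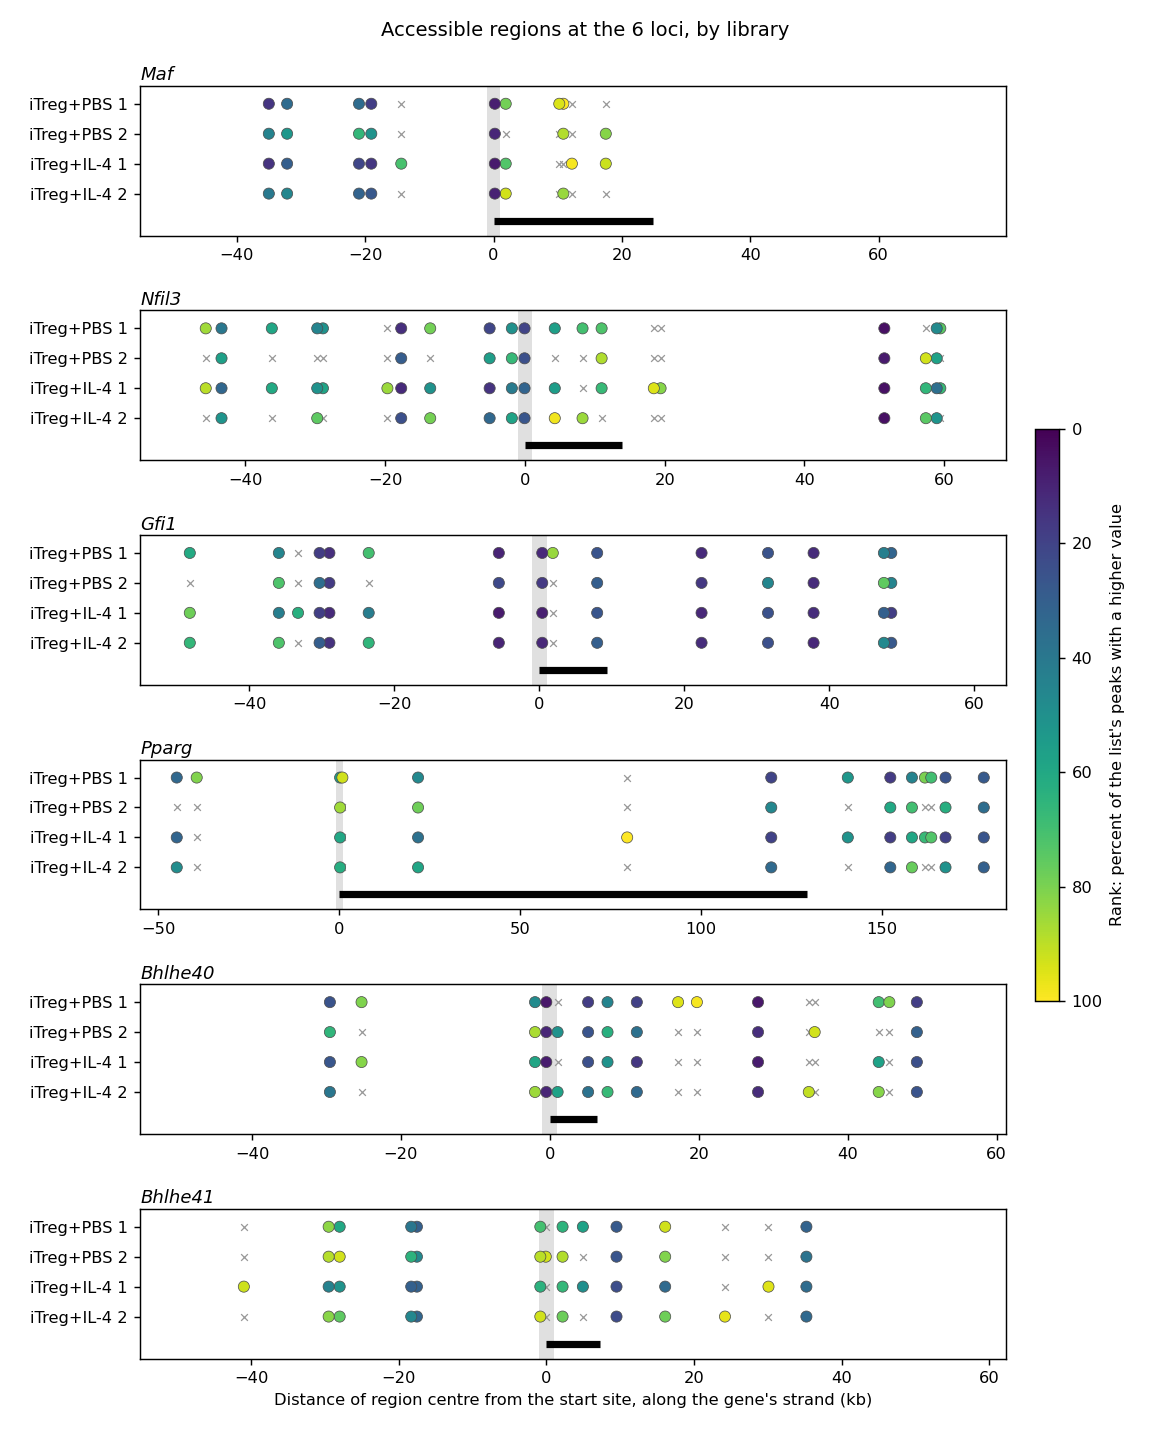
Each panel is 1 gene, the x axis is the distance of a region's centre from the start site along the gene's strand in kb, and each row is 1 library. Dots are called regions coloured by rank (dark is strong), crosses mark a region not called in that library, the grey band is the promoter (1 kb on each side) and the black bar is the gene record. The sites with the darkest dots recur in all 4 rows, while regions called in 1 library carry q-value ranks between 63.3 and 99.7. Some fairly strong sites lack a row. The region 44.9 kb upstream of Pparg had ranks of 33.3 in iTreg+PBS replicate 1 and 32.0 and 48.7 with IL-4, and was not called in iTreg+PBS replicate 2.

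Of the 6 loci, 5 held more regions per length than the median coding gene, and Pparg held fewer. Nfil3 had 20 regions (17.6 per 100 kb of record and flanks), Bhlhe40 had 16 (15.1 per 100 kb), Gfi1 had 15 (13.7 per 100 kb), Bhlhe41 had 14 (13.0 per 100 kb) and Maf had 11 (8.81 per 100 kb), against a median of 6.71 per 100 kb over coding genes. Pparg, the longest of the 6 records, had 14 regions or 6.10 per 100 kb. Of the 75 distal regions 47 were intergenic, 24 intronic and 4 exonic, and 31 lay upstream of the start site. Peaks per locus differed little between the conditions. Nfil3 had 16 and 9 peaks in the iTreg+PBS libraries and 19 and 12 in the iTreg+IL-4 libraries, the widest difference of means among the 6 (3 peaks, but 0.5 and not the widest in the upper 50% of each list), and the groups overlapped. The 2 libraries with the larger counts were replicate 1 of each condition. For the 6 genes the two-sided exact permutation p lay between 0.667 and 1 (adjusted p = 1 for each), and 2 libraries against 2 cannot reach a p below 0.33.

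In the individual libraries 74 and 54 of the 90 regions were called with PBS and 76 and 61 with IL-4. All 4 libraries shared 47 regions, 38 distal (50.7% of 75, against a background of 44.2%) and 9 at promoters (9 of 15, against 79.2%). The remainder fell to 11 regions in 3 libraries, 12 in 2 and 20 in 1. By q-value all 20 regions seen in 1 library lay in the lower part of their list, with a median rank of 92.9. By peak height 2 of them, both at Gfi1, lay in the upper 50%, at 39.2 and 39.5. Of the 20, 7 and 2 came from iTreg+PBS replicates 1 and 2, with 9 and 2 from the replicates with IL-4.

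The own promoters fell into a strong and a weak set. Bhlhe40 and Maf had the strongest, Bhlhe40 in the iTreg+PBS libraries and Maf in the iTreg+IL-4 libraries. Bhlhe40 (chr6:108660629-108666925, plus strand) had a region of 1682 bases across its start site with ranks of 5.86 and 10.6 in the iTreg+PBS libraries and 7.59 and 10.4 in the iTreg+IL-4 libraries. Maf (chr8:115682942-115707794, minus strand) had ranks of 8.59 and 10.7 with PBS and 7.25 and 9.18 with IL-4. In both genes the conditions overlapped, and replicate 2 stood lower than replicate 1 in each condition. The Bhlhe40 region also covers a start site of 0610040F04Rik, so the share of either gene in it cannot be told apart.

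Gfi1 (chr5:107716657-107726036, minus strand) had promoter ranks of 11.4 and 16.6 with PBS and 8.67 and 11.3 with IL-4. It was the promoter region of the set that stood higher in both iTreg+IL-4 libraries than in both iTreg+PBS libraries, although the nearest libraries, at 11.4 and 11.3, differed by little. The difference of means was 4.05 percentage points with all libraries, 1.46 without iTreg+PBS replicate 2, 2.76 without iTreg+IL-4 replicate 1 and 6.64 without iTreg+PBS replicate 1. That region also holds a start site of the noncoding A430072P03Rik. Such an order was met by 19.9% of all promoter regions called in the 4 libraries and the opposite order by 5.66%, and among the 9 shared promoters at these loci each order was met by 1.

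Nfil3 (chr13:52967209-52981073, minus strand) was the promoter with the opposite order. Its ranks were 20.1 and 24.4 with PBS and 32.0 and 26.6 with IL-4, so both iTreg+IL-4 libraries stood lower, by 7.05 percentage points between group means against a pooled SD of 3.45. With 1 library left out the difference lay between 4.37 percentage points, without iTreg+IL-4 replicate 1, and 9.74, in the same direction. Ranked by peak height the conditions overlapped, at 13.7 and 18.9 with PBS and 18.7 and 18.1 with IL-4. Peak heights at this site were 250 and 100 with PBS and 171 and 152 with IL-4 and overlapped. Ranked among the regions called in all 4 libraries, where list length plays no part, the Nfil3 promoter again stood lower in both iTreg+IL-4 libraries, at 52.0 and 37.6 against 32.3 and 28.9 with PBS. With 2 libraries in each condition, ranks without overlap always differ by at least their pooled SD. The SD printed for such regions, here and below, is therefore no support for a difference. The difference of means was under the pooled SD in 34 of the 47 shared regions, and in 31573 of 47767 over the series.

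The sequences just before the start sites are shown for Nfil3, the promoter with the lower standing, and for Bhlhe41, whose entry holds the E-box of its own family. They are the parts of the RefSeq promoter entries (GRCm38) that precede the GENCODE start and hold no RefSeq exon of the gene, 5′ to 3′ on the gene's strand, minus in both cases. For Nfil3 the RefSeq gene record runs on to 52982878, so the stretch lies within it. Capitals mark CACGTG, the E-box read by Bhlhe40 and Bhlhe41. RefSeq promoter entries were found for 4 of the 6 genes (Nfil3, Gfi1, Pparg and Bhlhe41).
Nfil3, chr13:52981087-52981289: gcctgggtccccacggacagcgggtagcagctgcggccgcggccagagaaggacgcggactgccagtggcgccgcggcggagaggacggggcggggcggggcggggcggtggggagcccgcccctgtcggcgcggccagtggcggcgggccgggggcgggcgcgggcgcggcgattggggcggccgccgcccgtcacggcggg
Bhlhe41, chr6:145865559-145865670: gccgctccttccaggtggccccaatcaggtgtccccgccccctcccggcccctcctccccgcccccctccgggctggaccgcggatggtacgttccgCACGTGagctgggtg
The Nfil3 stretch of 203 bases holds none of the searched motifs and belongs to an entry with 81.7% G and C. The Bhlhe41 stretch of 112 bases holds 1 CACGTG, a motif present in 7.15% of the 32851 promoter entries of 300 bases.

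Pparg and Bhlhe41 were the weak promoters. Pparg (chr6:115360951-115490399, plus strand) had ranks of 56.6 and 85.7 with PBS and 59.5 and 62.4 with IL-4. Its peak heights were 35 and 13 with PBS and 32 and 26 with IL-4. The low standing of the iTreg+PBS mean came from replicate 2, and the other 3 libraries lay within a few percentage points of each other.

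Bhlhe41 (chr6:145858243-145865558, minus strand) had ranks of 70.2 and 89.7 with PBS and 63.7 and 92.6 with IL-4, so the libraries split by replicate number and not by condition. This shared region was centred 0.812 kb upstream of the start site. The E-box shown above lies outside it, in a separate region of 253 bases that was called in iTreg+PBS replicate 2 only, at a rank of 93.3.

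**Figure D2:**
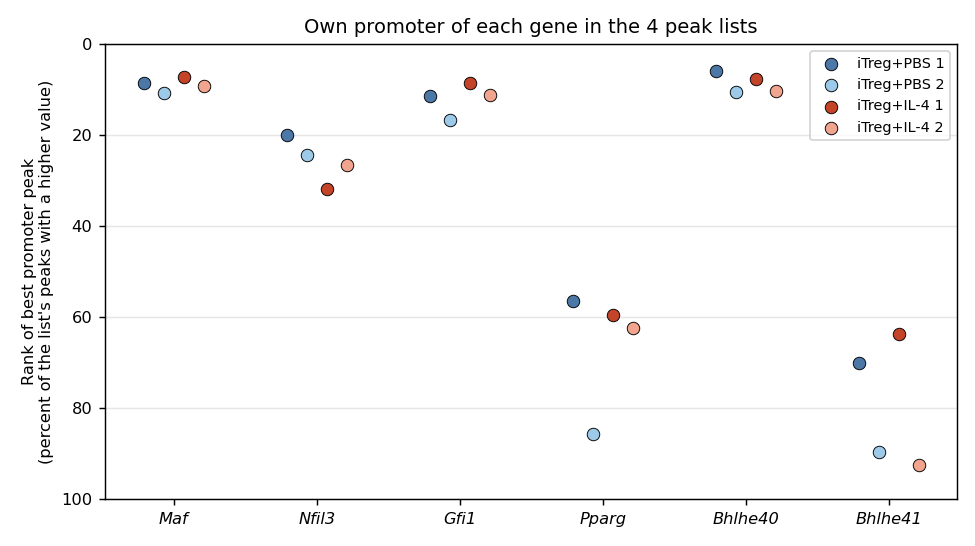
The y axis is the rank of the best peak at each gene's own promoter (percent of the list's peaks with a higher −log10 q-value, 0 at the top), and each dot is 1 library. The promoters of Bhlhe40, Maf and Gfi1 stayed at ranks of 16.6 or less in every library, Nfil3 lay between 20.1 and 32.0, and Pparg and Bhlhe41 lay between 56.6 and 92.6.

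Distal regions gave the larger differences in rank, here and over the whole series. For shared promoter regions the median difference between iTreg+IL-4 and iTreg+PBS means was -1.43 percentage points at these loci and -0.822 over the series. Among the 38 shared distal regions 6 stood higher in both iTreg+IL-4 libraries (background 19.7%) and 0 stood lower in both (background 4.97%). These lay at Maf (1), Gfi1 (2) and Bhlhe41 (3), and no distal region of Nfil3, Pparg or Bhlhe40 had either order. The share was 15.8%, below the background. Its side changed with the setting, at 18.4% against 15.1% when ranked among shared regions, 17.1% against 14.8% with lists of equal length, and 89.7% against 71.8% without iTreg+PBS replicate 1, so nothing about the genes is read from it. The median difference between iTreg+IL-4 and iTreg+PBS means of these distal regions was -6.10 percentage points, against -3.16 over all shared distal regions. It was 3.17 against 1.57 without iTreg+PBS replicate 2, so this library decided its sign. iTreg+PBS replicate 2 had the largest rank of the 4 libraries in 32 of the 38.

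**Figure D3:**
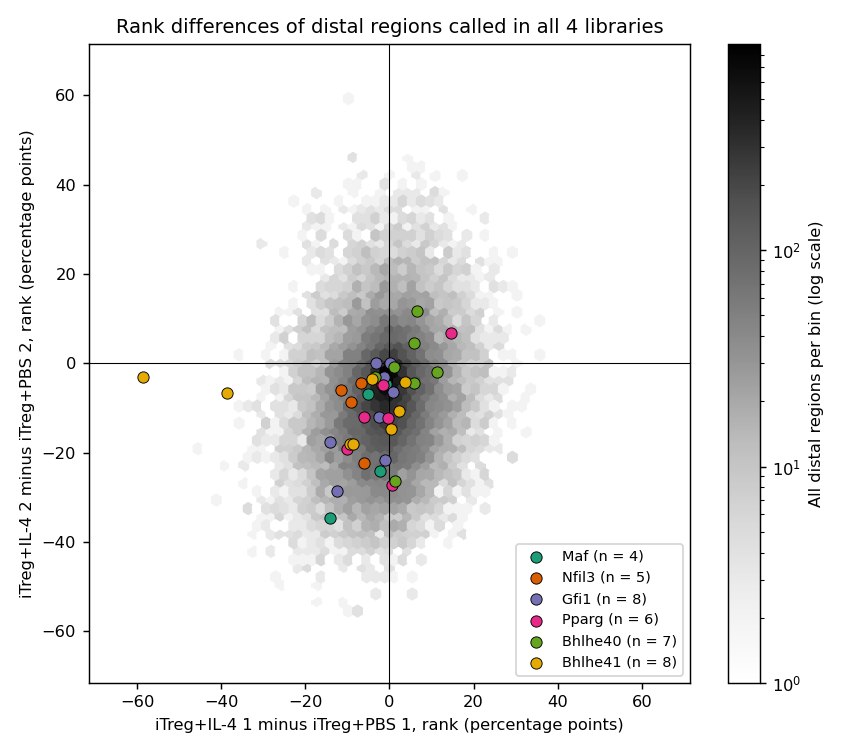
The x axis is iTreg+IL-4 replicate 1 minus iTreg+PBS replicate 1 and the y axis the same for replicate 2, in percentage points of rank (negative is stronger with IL-4), with grey bins for all 33395 distal regions called in the 4 libraries (log scale) and coloured dots for the 38 at the 6 genes. Most dots lie within the grey cloud and below the horizontal line, and 2 Bhlhe41 regions lie far to the left, where the difference is in replicate 1.

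At Maf an array of 4 shared distal regions lay between 19.0 and 35.0 kb upstream of the start site, in intergenic sequence. The region centred 21.0 kb upstream had ranks of 35.0 and 66.1 with PBS and 20.9 and 31.4 with IL-4. Both iTreg+IL-4 libraries stood higher, by 24.4 percentage points between means against a pooled SD of 16.4. Without iTreg+PBS replicate 2 the difference was 8.86 percentage points and without iTreg+PBS replicate 1 it was 40.0, in the same direction. Peak heights of 93 and 23 against 158 and 80 overlapped. The region 35.0 kb upstream was the distal Maf region with the best rank in its weakest library, at 15.5 and 44.9 with PBS and 14.6 and 40.4 with IL-4, and followed replicate number. The 200 bases at the centre of each are printed because they are regions near Maf with and without an ordered difference (GRCm38, plus strand). Capitals mark a GATA motif in the former, and a pair of AP-1 motifs with a STAT6 motif that shares bases with the second in the latter. The STAT6 motif searched was the arms TTC and GAA with 4 bases between them.
Maf 21.0 kb upstream, chr8:115728648-115728847: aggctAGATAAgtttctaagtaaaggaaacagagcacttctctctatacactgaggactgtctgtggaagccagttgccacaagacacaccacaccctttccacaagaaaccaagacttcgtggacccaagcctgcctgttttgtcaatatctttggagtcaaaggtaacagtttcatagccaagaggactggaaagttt
Maf 35.0 kb upstream, chr8:115742690-115742889: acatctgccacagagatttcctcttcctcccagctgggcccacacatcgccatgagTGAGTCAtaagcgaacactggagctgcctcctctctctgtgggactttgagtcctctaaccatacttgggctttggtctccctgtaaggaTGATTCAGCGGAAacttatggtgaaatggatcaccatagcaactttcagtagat

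Gfi1 had 2 distal regions beside its promoter that stood higher in both iTreg+IL-4 libraries. The distal region 48.5 kb downstream of the start site, in an intron of the noncoding Gm26692, had ranks of 32.2 and 45.0 with PBS and 18.0 and 27.4 with IL-4. Both iTreg+IL-4 libraries stood higher there, by 15.8 percentage points against a pooled SD of 7.94, and by 9.43 without iTreg+PBS replicate 2. Peak heights were 83 and 33 with PBS and 162 and 85 with IL-4 and did not overlap. A region 31.5 kb downstream had ranks of 25.7 and 45.9 with PBS and 24.7 and 24.3 with IL-4, where the difference of 11.3 percentage points fell to 1.25 without iTreg+PBS replicate 2. The strongest distal region in its weakest library lay 28.9 kb upstream in an intron of Evi5, with ranks of 13.3 and 17.3 with PBS and 12.1 and 14.3 with IL-4, which overlapped.

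The centres of the first and the last of these regions are shown as the distal regions near Gfi1 with an ordered difference and with the best rank in its weakest library (GRCm38, plus strand). Capitals mark a pair of STAT6 motifs and the reverse complement of AAATCA (Gfi1) in the first, and the AP-1 motif TGANTCA, present in 2 copies, in the last.
Gfi1 48.5 kb downstream, chr5:107677404-107677603: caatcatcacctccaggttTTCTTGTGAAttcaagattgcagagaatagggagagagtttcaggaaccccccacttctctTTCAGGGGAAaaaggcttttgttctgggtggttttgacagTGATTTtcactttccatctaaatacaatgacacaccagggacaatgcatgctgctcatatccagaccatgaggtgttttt
Gfi1 28.9 kb upstream, chr5:107754876-107755075: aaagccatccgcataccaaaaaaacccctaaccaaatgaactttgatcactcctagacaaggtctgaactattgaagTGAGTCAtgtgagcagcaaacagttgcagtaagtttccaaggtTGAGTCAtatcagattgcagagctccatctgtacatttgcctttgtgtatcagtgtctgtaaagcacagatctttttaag

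In the full lists 3 of the 11 shared Gfi1 regions stood higher in both iTreg+IL-4 libraries and 0 lower, and 0 of the 8 shared Bhlhe40 regions stood higher or lower, against 19.7% higher and 5.18% lower over all shared regions of the series. The 47 shared regions were also ranked only among the regions called in all 4 libraries, which removes the effect of list length, a ranking chosen after the values were seen. The Gfi1 counts were then 7 higher and 1 lower of 11, and the Bhlhe40 counts 0 higher and 3 lower of 8. The difference between the genes was not tested. Over all shared regions of the series 15.1% of distal and 12.6% of promoter regions stood higher, and 12.5% of distal and 13.2% of promoter regions stood lower.

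Some of the 7 Gfi1 differences were small, and 1 of the 7 regions, 22.4 kb downstream, is the promoter of the neighbouring 4930428O21Rik, with ranks of 19.4 and 19.3 with PBS and 18.0 and 17.7 with IL-4. At the own promoter the ranks among shared regions were 18.4 and 19.7 with PBS and 14.3 and 16.0 with IL-4. At the region 28.9 kb upstream they were 21.4 and 20.4 with PBS and 19.8 and 20.3 with IL-4, a difference of under 1 percentage point. The widest difference of means was at 47.5 kb downstream, with 66.4 and 85.2 with PBS and 49.6 and 65.2 with IL-4. It was followed by the regions at 48.5 kb downstream (51.3 and 52.8 with PBS, 29.7 and 38.8 with IL-4), 31.5 kb downstream (41.4 and 53.9 with PBS, 40.5 and 34.4 with IL-4) and 5.58 kb upstream (15.8 and 26.3 with PBS, 12.0 and 14.4 with IL-4). Of these 4 the one at 48.5 kb kept its size without iTreg+PBS replicate 2, at 17.1 against 17.9 percentage points, while those at 47.5, 31.5 and 5.58 kb fell from 18.4 to 8.97, from 10.2 to 3.95 and from 7.83 to 2.55. In the full lists the regions at 47.5 and 5.58 kb overlapped between the conditions. The Gfi1 region that stood lower lay in the gene itself, 7.98 kb from the start site, with ranks of 42.0 and 35.0 with PBS and 43.0 and 42.1 with IL-4.

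At Bhlhe40 the widest of the 3 differences lay inside the gene, 5.14 kb from the start site. It covered untranslated exon sequence, and its ranks among shared regions were 28.6 and 30.5 with PBS and 39.9 and 52.7 with IL-4. The peaks of the region were 254 and 91 high with PBS and 169 and 92 with IL-4, and overlapped. In the full lists its ranks, 17.8 and 25.8 with PBS and 24.3 and 37.5 with IL-4, overlapped too. The other two lay 7.75 kb and 49.3 kb downstream of the start site.

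**Figure D4:**
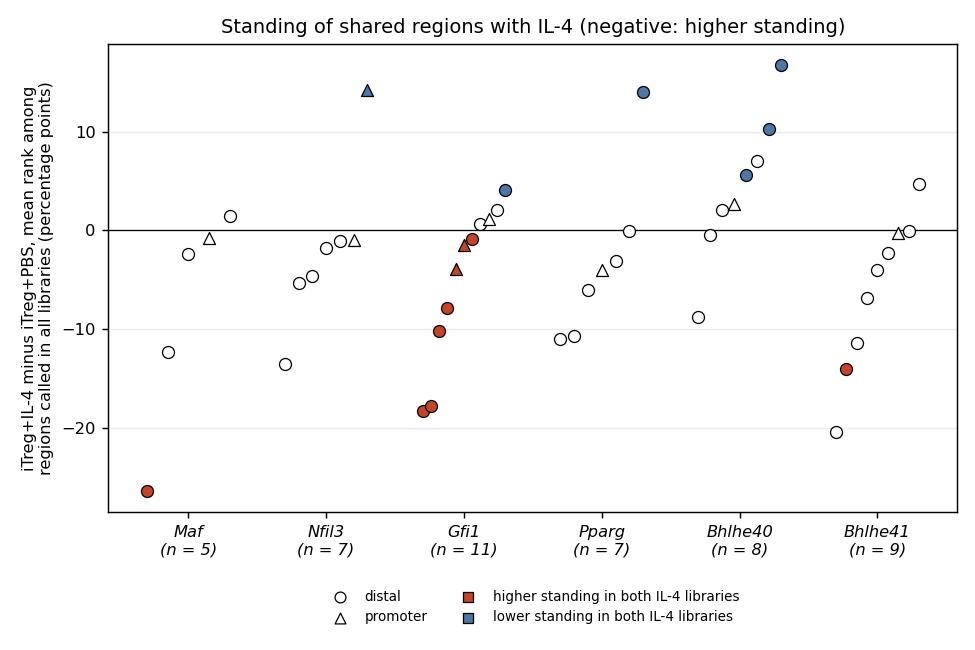
The y axis is the difference of mean rank between iTreg+IL-4 and iTreg+PBS, in percentage points, with ranks taken among the regions called in all 4 libraries, for each shared region of a gene (circles distal, triangles promoter). Red regions stood higher and blue regions lower in both iTreg+IL-4 libraries than in both iTreg+PBS libraries, 9 and 6 of 47, with 7 of the red ones at Gfi1 and 3 of the blue ones at Bhlhe40. The 9 and 6 are 19.1% and 12.8%, against 14.3% and 12.7% over all shared regions of the series.

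The strongest distal region of Bhlhe40, and of the 6 genes in its weakest library, lay 28.0 kb downstream. Its ranks were 6.36 and 13.3 with PBS and 7.51 and 12.5 with IL-4, and the conditions overlapped. For Nfil3 the corresponding region lay 17.7 kb upstream, with ranks of 13.4 and 29.2 with PBS and 11.8 and 24.4 with IL-4. All 5 shared distal regions of Nfil3 had a smaller mean rank with IL-4 while its promoter had a larger one, yet none of the 5 was without overlap. The class of 1 of the 5, 1.86 kb upstream (chr13:52982763-52983102), depends on the annotation, since it spans the RefSeq start of the gene at 52982878. Its ranks were 50.2 and 66.8 with PBS and 41.0 and 58.2 with IL-4. Without iTreg+PBS replicate 2 the mean rank with IL-4 was smaller in 2 of the 5 and larger in 3. Without iTreg+IL-4 replicate 1 it was larger at 17.7 and 43.4 kb upstream, by 3.08 and 3.93 percentage points, and smaller in the others. The contrast with the promoter thus depended on either library.

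At Pparg the corresponding region lay 178 kb from the start site, beyond the end of the gene. It had ranks of 28.0 and 35.2 with PBS and 26.5 and 30.4 with IL-4, which overlapped. Inside the gene the strongest shared region lay 119 kb from the start site in an intron, at 20.1 and 46.2 with PBS and 19.7 and 34.1 with IL-4. Pparg thus had a weak promoter and stronger distal sites in the same libraries.

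Bhlhe41 showed the same arrangement, and its largest differences came from 1 library. The region 16.1 kb downstream of the start site had ranks of 92.8 and 80.9 with PBS and 34.2 and 77.8 with IL-4, with peak heights of 16 and 15 against 70 and 19. The region 29.5 kb upstream had ranks of 83.1 and 88.8 with PBS and 44.4 and 82.3 with IL-4. In both, iTreg+IL-4 replicate 1 stood far above the other 3 libraries, which were weak, so the differences between means of 30.8 and 22.6 percentage points rested on it and were 9.06 and 3.69 without it. The region with the best rank in its weakest library was a different one, 9.51 kb downstream, with ranks of 28.0 and 26.5 with PBS and 23.8 and 23.0 with IL-4. It did not overlap between the conditions in the full lists, at a difference of 3.83 percentage points and a pooled SD of 0.82, but ranked among shared regions it did.

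The centre of the Bhlhe41 region 16.1 kb downstream is printed because it is a tandem repeat (GRCm38, plus strand, with none of the searched motifs).
Bhlhe41 16.1 kb downstream, chr6:145849352-145849551: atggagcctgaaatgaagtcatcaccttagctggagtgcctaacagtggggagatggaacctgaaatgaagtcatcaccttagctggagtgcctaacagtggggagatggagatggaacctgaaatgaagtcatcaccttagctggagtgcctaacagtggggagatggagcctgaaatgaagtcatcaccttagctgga
Shifted against itself by 112 bases it was identical at 97.7% of positions, and 51.4% of its words of 20 bases were copies of another in the window. A repeated word of this length was found in 8.83% of the distal regions of the series. Whether the placement of reads in this repeat affects the peak was not tested.

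Across the 75 distal regions, AP-1 motifs (TGANTCA) lay in the central 200 bases of 18, or 24.0%, against 14.8% of all distal regions of the series. GATA motifs (AGATAA) lay in 13, or 17.3%, against 8.87%. STAT6 motifs lay in 7, or 9.33%, against 6.41%, and STAT5 motifs, with the same arms 3 bases apart, in 6, or 8.00%, against 9.34%. Both strands were searched, and AP-1 and STAT6 matches can share bases as in the Maf region above. The motifs of the factors themselves were rarer in these regions than AP-1 motifs. TGCTGAC (Maf) lay in 5 distal regions, AAATCA (Gfi1) in 6, CACGTG (Bhlhe40 and Bhlhe41) in 2, TTANGTAA (Nfil3) in 1, and AGGTCA repeated with 1 base between (Pparg) in 0, against 4.11%, 10.6%, 3.50%, 1.40% and 0.0451% of all distal regions. A match is a stretch of letters and no measure of binding.

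For context, a list of 22 genes of the type 2 pathway (Gata3, Stat6, Il4ra, the Th2 cytokines and receptors and factors upstream of them) was read by the same rule. It held 512 regions, of which 11 (2.15%) were called only with IL-4 and 4 (0.781%) only without it, close to the background. Those called only with IL-4 lay near Gata3, Stat6, Il4ra, Stat5a, Stat5b, Batf, Ets1, Nfatc1, Il4, Il13 and Il17rb, and those called only without it near Il4ra, Nfatc1, Ccr8 and Il17rb. Stat5a, Stat5b and Ets1 had 2 regions each called only with IL-4, and neighbouring genes can share a region, so the names are not separate regions. Of its 286 shared regions 48 (16.8%) stood higher and 13 (4.55%) lower in both iTreg+IL-4 libraries, against 19.7% and 5.18% over all shared regions. The promoters of 17 of the 22 genes had a peak in all 4 libraries. Spi1 and Spib, looked up because their symbols resemble Spi1b, had no promoter peak in any library and are not counted with the 6 genes.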

How the data were processed

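ATAC-seq libraries were mapped to mm10 by the authors with Bowtie2 2.2.5, and peaks were called in each library, unpooled, with MACS2 2.1.2. The submitters' processing notes also name bedtools 2.16.2. Peak calling parameters are given only by reference to an earlier study, and the handling of the transposase offset, duplicates and mitochondrial reads is not given in the sources used here. How these steps affect peak positions, heights or ranks was not tested. The deposited values are the −log10 of the q-value and the height of the pileup signal of each peak, as the authors called them, with no scaling between libraries. The lowest −log10 q-value in any list was 1.31, and all peaks were kept. Read totals are unknown, so no counting interval was given, and the number of libraries limits the precision.

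Lists were read with Python 3.11.15, numpy 2.4.6 and pandas 2.3.3, and drawn with matplotlib 3.10.9. Gene records and start sites came from GENCODE vM21, with RefSeq records as an alternative. Groups and replicate numbers came from the sample labels. Peaks sharing at least 1 base across libraries were merged, and positions are given counting from 1. Presence and rank were compared as counts beside the share over all regions, with no set test. The exact two-sided permutation test was run on peaks per locus alone, adjusted by the Benjamini-Hochberg method over the 6 genes. The region counts were checked on simulated lists of 20000 regions, and recovered every planted region, 60 present with IL-4 alone, 64 present without it alone, 50 with a higher and 30 with a lower rank. The planted differences were set very wide, so this checks the counting alone. It does not tell how many unplanted regions met the same orders. Sequences were read from GRCm38, on which no region passed a chromosome end, and motifs were searched in the 200 bases around region centres on assembled chromosomes (93503 of 93679 regions).

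Genes and lists were chosen with earlier results of these data known. Regions named were each own promoter, any region called in both libraries of 1 condition and neither of the other, the shared distal region of each gene with the best rank in its weakest library, and the one with the largest difference among ranks without overlap. Further regions were named after their values were seen. The alternatives were other list cuts, flanks, promoter widths, overlaps and ranks, each library left out, and the replicate number as a block. One gene of the cell type marker lists is not reported here. Other assays of the study were not analysed here.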

Additional observations from a re-analysis of the deposited data

How the results depend on the processing

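The count of 0 regions called only with IL-4 became 1 with lists of equal length, 1 with a reciprocal overlap of 50% and 2 with flanks of 100 kb. The first lay at Nfil3 (chr13:52994352-52994870), the second also at Nfil3 (chr13:52923354-52924052), and those of the wider flanks at Nfil3 and Bhlhe41. The second region also had a peak in iTreg+PBS replicate 2, at a rank of 93.0, which covered under 50% of it and was not counted. Leaving out 1 library gave 1 to 9 such regions, and 1 to 7 called only without IL-4. Without iTreg+PBS replicate 1 there were 8 only with IL-4, and without iTreg+IL-4 replicate 2 there were 9, while without iTreg+PBS replicate 2 there were 7 only without IL-4. The 6 promoters with a peak in all libraries became 5 with lists of equal length and 4 in the upper 50% of each list. With 1 library left out, a call needs fewer libraries. Shares over all regions at these settings are not given, so nothing about the genes is read from these counts.

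The 7 regions that stood higher in both iTreg+IL-4 libraries became 8 with lists of equal length, 4 in the upper 50% of each list and 3 with flanks of 10 kb, and 8 to 41 with 1 library left out (41 of 48 without iTreg+PBS replicate 1, 89.7% of distal and 66.7% of promoter regions against 71.8% and 68.5% over all regions). The 1 region that stood lower became 7 with lists of equal length, 6 when ranked among shared regions (an alternative chosen after seeing the data) and 0 by peak height, and 1 to 19 with 1 library left out (19 of 55 without iTreg+PBS replicate 2, 33.3% of distal and 40% of promoter regions against 36.4% and 34.8%). With lists of equal length 17.1% of distal regions stood higher and 17.1% lower, against 14.8% and 12.1% over all regions. For promoter regions the shares were 25% and 12.5%, against 12.4% and 13.2%. No share over all regions is given for the upper 50% or the flanks of 10 kb. With the replicate number as a replicate block, 28 of the 47 shared regions stood higher and 5 lower in both pairs (59.6% and 10.6%), against 43.4% and 12.3% of all shared regions of the series. Deviations of same-numbered libraries from their group means correlated at r = 0.452 over 47767 shared regions, but 2 pairs cannot establish that the numbers pair the samples, and regions are not independent replicates.

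The difference in peaks per locus (iTreg+IL-4 minus iTreg+PBS) had no call to lose. Lists of equal length gave -0.5 at Maf, 0.5 at Pparg and 0 at Bhlhe40 and Bhlhe41, and 1.5 at Nfil3. The upper 50% gave 0.5 at Pparg, 0 at Bhlhe40, 0.5 at Nfil3, 1.5 at Maf and 2 at Bhlhe41, so Nfil3 no longer had the widest difference. Flanks of 10 kb gave 0.5 at Bhlhe40, -0.5 at Bhlhe41, -0.5 at Gfi1, 0 at Maf and 1 at Nfil3, and flanks of 100 kb gave 1.5 at Bhlhe40, 1 at Pparg, 2.5 at Bhlhe41 and 4.5 at Nfil3. With 1 library left out it ranged from -0.5 to 6.5 at Nfil3, -3 to 3 at Pparg, -2 to 1 at Bhlhe40, -0.5 to 2.5 at Gfi1, -0.5 to 1.5 at Maf and 0 to 2 at Bhlhe41. The negative values at Nfil3 and Gfi1 appeared without iTreg+PBS replicate 2 and, at Nfil3, without iTreg+IL-4 replicate 1. With each number once per group a replicate block cannot change these differences of means, and at Nfil3 both pairs differed by 3 peaks. RefSeq gene records left all 6 kinds of result within the limits for an equal value. The cause of these shifts was not tested.

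An uncalled region did not reach the peak caller's threshold in that library, which is not evidence that the site was closed. Read totals are unknown, and the 20 regions called in 1 library had low q-value ranks, so presence is least certain for them. The depth of iTreg+PBS replicate 2 cannot be told apart from its biology.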
